A study of Mus musculus with 8 samples.

Results

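AF529169 and 8 genes of the mTOR pathway (Mtor, Rptor, Rictor, Tsc1, Tsc2, Rheb, Rps6kb1 and Eif4ebp1) were followed across mouse olfactory epithelium, 9 of the 25913 genes in the deposited count table. AF529169 was selected on its measured rise in counts between the groups, so its values are a description and carry no test. The other 8 were chosen for their place in the pathway, with earlier results of these data known. The study removed Igf1r, a receptor for insulin-like growth factors, from olfactory sensory neurons, and sequenced poly(A)-selected RNA of epithelium that had been dissected out of 40-week-old C57BL/6J mice. One group holds the 4 libraries titled IGF1R_flfl (replicates 1, 2, 13 and 3), whose genotype field reads OMPIGF1 (KO). The other holds the 4 libraries titled OMP_IGF1R (replicates 11, 12, 17 and 18), whose genotype field reads OMPflfl (Ctrl). Titles and genotype field thus name the groups in opposite ways, and the groups are called here by their titles. Every difference is OMP_IGF1R over IGF1R_flfl, and no genotype is read from it. Single-library values follow the order of replicates just given. The labels name OMP but do not spell out the driver of the deletion, do not say whether each library is 1 animal, and describe dissected tissue that holds more cell types than the targeted neurons. P-values therefore measure the spread between these libraries, which may be technical. The numbers that open the titles also differ by group, so a batch that follows them and the group cannot be told apart.

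mTOR is a protein kinase that links growth factors, amino acids and energy supply to protein synthesis, cell growth and autophagy. It works in mTORC1, which holds Rptor (raptor), and in mTORC2, which holds Rictor. Insulin and IGF receptors reach mTORC1 through AKT, which inhibits the Tsc1-Tsc2 complex and so frees the small GTPase Rheb to activate the kinase. mTORC1 then phosphorylates the S6 kinase encoded by Rps6kb1 and the translation repressor encoded by Eif4ebp1. Most of this control acts on proteins, by phosphorylation and by location at the lysosome, and RNA levels do not measure it. AF529169 carries the identifier ENSMUSG00000039313, which the reference gene table now calls Minar1. Its product is a membrane protein also known as UBTOR, reported to bind NOTCH2 and the mTOR inhibitor DEPTOR and to restrain mTOR signalling.

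The deposited table knows AF529169 by the name of a cDNA alone, so the start of its reading frame is shown here to identify it. The gene lies on the minus strand of GRCm38 chromosome 9, from 89590038 to 89622986. The principal GENCODE transcript has 4 exons and 7202 bases. The first 120 coding bases lie in exon 2 at chr9:89603223-89603342, and capitals mark the start codon.
AF529169: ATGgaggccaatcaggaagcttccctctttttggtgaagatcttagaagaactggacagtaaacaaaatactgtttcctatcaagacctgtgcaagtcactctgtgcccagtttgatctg
Each of the 7103 windows of 100 bases (the read length) in this transcript was absent from the transcripts of other genes on either strand. The longest run it shares with the transcript of its paralog A730017C20Rik (now Minar2) is 12 bases. The count table lists 0 genes whose bounds overlap it.

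Total counts ran from 18802471 to 27793375 per library. Levels are given as CPM, reads scaled to a common library size with TMM factors. Igf1r, the targeted receptor, stood at 72.9, 55.5, 67.9 and 69.9 CPM (IGF1R_flfl) against 49.6, 43.9, 34.5 and 40.5 CPM (OMP_IGF1R). The lower group (edgeR adjusted p = 0.0117) is the one with the control genotype in its labels, though a whole-gene count need not follow the deletion. All 15 markers of mature olfactory neurons were detected and all 15 were called lower (edgeR adjusted p under 0.05), against 5.37% of all tested genes. Their log2 fold changes ran from -1.45 to -0.42, with a median of -0.66. Their sum was 16178 to 22476 CPM across IGF1R_flfl libraries and 9336 to 11253 CPM across those of OMP_IGF1R. Omp, which the titles name, was at 5386 ± 989 CPM in IGF1R_flfl and 1969 ± 224 CPM in OMP_IGF1R (SD, n = 4 each). Its log2 fold change was -1.45 (SE 0.132, edgeR adjusted p = 0.00179). A sum is carried by abundant genes, and the part of Omp in it was not tested. Fewer cells of a type and less RNA per cell cannot be told apart in bulk tissue. Markers of neighbouring tissue were high in 1 library of each group, those of bulb and oligodendrocytes in IGF1R_flfl 2 (2481 CPM summed) and those of skeletal muscle in OMP_IGF1R 17 (503 CPM summed). Neutrophil markers summed to 885 CPM in IGF1R_flfl 13 and 568 CPM in OMP_IGF1R 17, and to 106 to 276 CPM elsewhere.

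AF529169 was low in all libraries and about 4 times as abundant in the libraries titled OMP_IGF1R. The IGF1R_flfl libraries gave 2.17, 2.51, 2.45 and 1.74 CPM, from 60, 66, 54 and 44 reads. Those of OMP_IGF1R gave 7.04, 10.4, 7.52 and 9.75 CPM, from 138, 277, 170 and 254 reads. The lowest OMP_IGF1R library was well above the highest IGF1R_flfl library, and without both libraries with neighbouring tissue the log2 fold change was 2.11. Group means of 2.22 ± 0.351 CPM and 8.69 ± 1.66 CPM (SD, n = 4 each) gave a ratio of 3.91 and a log2 fold change of 1.97 (SE 0.179). The log2 fold change was 1.87 to 2.06 over the fits that left out 1 library. It ranked 31 from the top among all 17381 tested genes. Among the 14870 tested genes with a mean of at least 1 on the log2 CPM scale it ranked 21. The authors' deposited table gives AF529169 a log2 fold change of 1.48 with a standard error of 0.154. DESeq2 run here on the counts gave 1.98, and the reason for the lower deposited value was not tested.

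**Figure D1:**
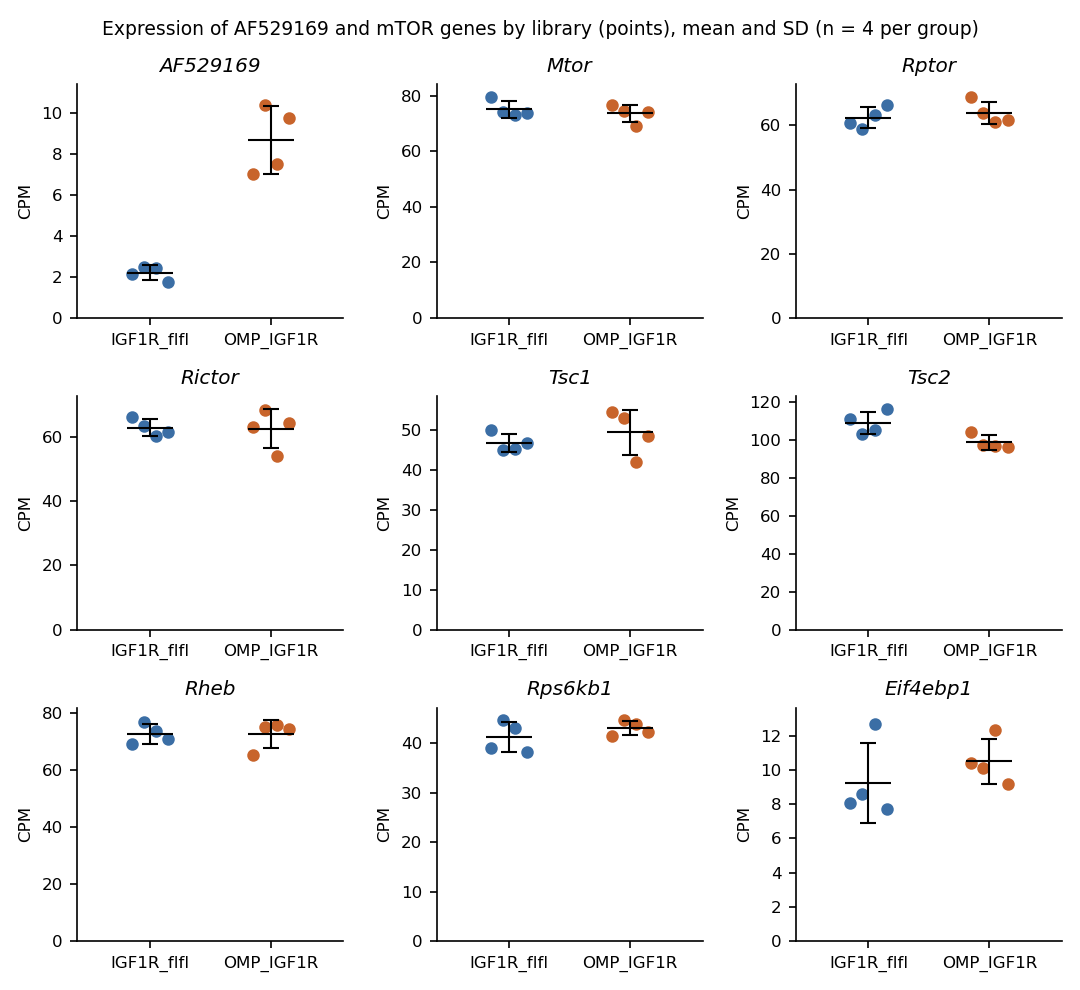
CPM of AF529169 and the 8 mTOR genes on axes from 0, with 1 point per library, blue for IGF1R_flfl and orange for OMP_IGF1R. Horizontal lines are group means and bars SD (n = 4 each). The AF529169 points lie at 1.74 to 2.51 and 7.04 to 10.4 CPM, while the groups overlap for each of the other 8 genes.

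Of the 8 mTOR genes, 0 were called at an edgeR adjusted p under 0.05, against 8.20% of the 17381 genes tested. In a set of 8 genes, 0 called is near that share. All 8 passed the filter on low counts. DESeq2 and limma voom also called 0, and 1 of the 8 (Tsc2) had an edgeR p under 0.05 before adjustment, against 23.5% of all tested genes. DESeq2 called 12.6% and voom 10.6% of all genes that each tested. A p that misses the threshold does not show equal levels, so the interval of each ratio is given. The groups overlapped for all 8 genes, while they did not overlap for 16.9% of all tested genes. Of the fold changes 4 were above 0 and 4 below, with a median log2 fold change of 0.016 beside -0.012 for all tested genes.

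Mtor (chromosome 4, 148448611 to 148557683), the kinase itself, gave 79.5, 74, 72.9 and 73.9 CPM in the first group and 76.7, 74.5, 69.2 and 74 CPM in the second. All 8 values lay within a narrow band, with IGF1R_flfl 1 at its top and OMP_IGF1R 17 at its bottom. The log2 fold change was -0.029 (SE 0.0505, edgeR adjusted p = 0.774), and its 95% interval allowed a ratio of 0.906 to 1.06.

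Rptor (chromosome 11, 119602905 to 119899576), the subunit of mTORC1 that recruits its substrates, ran from 59 to 66.5 CPM in IGF1R_flfl and from 61 to 68.8 CPM in OMP_IGF1R. Its log2 fold change was 0.032 (SE 0.0564, edgeR adjusted p = 0.782), with a ratio of 0.936 to 1.12 in the 95% interval. Rictor (chromosome 15, 6708381 to 6800398), the defining subunit of mTORC2, ran from 60.3 to 66.3 CPM and from 54.1 to 68.5 CPM, the lowest value being that of OMP_IGF1R 17. Its log2 fold change was -0.0096 (SE 0.0717, edgeR adjusted p = 0.951), with a ratio of 0.888 to 1.11. Within each library the ratio of Rptor to Rictor CPM was 0.995 ± 0.082 in IGF1R_flfl and 1.03 ± 0.097 in OMP_IGF1R (SD, n = 4 each), and the groups overlapped.

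The inhibitory complex held the member nearest to a call. Tsc2 (chromosome 17, 24595937 to 24632629), which turns Rheb off by speeding its GTP hydrolysis, stood at 111, 103, 105 and 116 CPM (IGF1R_flfl) against 104, 97.3, 96.4 and 96.1 CPM (OMP_IGF1R). OMP_IGF1R 12, 17 and 18 were below all IGF1R_flfl libraries, and OMP_IGF1R 11 lay among them. The log2 fold change was -0.14 (SE 0.0552, edgeR unadjusted p = 0.0293, adjusted p = 0.157), with a ratio of 0.832 to 0.988 in the 95% interval, which is not adjusted for the number of genes. With libraries scaled by total counts alone, the log2 fold change of Tsc2 was -0.071 (edgeR adjusted p = 0.52). Of the Tsc2 transcript's 100-base windows, 92% were unique and the rest also occur in Pkd1, named after its values were seen, which stood at -0.03 on the log2 scale (SE 0.095, edgeR adjusted p = 0.886). Tsc1 (chromosome 2, 28641228 to 28691167), the partner that stabilizes Tsc2, ran from 45 to 50.01 CPM and from 41.8 to 54.4 CPM, a difference of 0.079 on the log2 scale (SE 0.0823, edgeR adjusted p = 0.613) and a ratio of 0.929 to 1.2 in the 95% interval. The ratio of Tsc1 to Tsc2 CPM was 0.452, 0.437, 0.431 and 0.402 (IGF1R_flfl) against 0.524, 0.542, 0.433 and 0.503 (OMP_IGF1R). It was higher in 3 OMP_IGF1R libraries than in any IGF1R_flfl library, and OMP_IGF1R 17 lay within the IGF1R_flfl range.

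Rheb (chromosome 5, 24802823 to 24842624), the activator of mTORC1, ran from 69 to 76.8 CPM in IGF1R_flfl and from 65.4 to 75.7 CPM in OMP_IGF1R. Both means were 72.6 CPM, and the 95% interval allowed a ratio of 0.91 to 1.1 (edgeR adjusted p = 1). The lowest library was OMP_IGF1R 11, and the other 3 of its group lay between 74.3 and 75.7 CPM.

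Of the substrates, Rps6kb1 (chromosome 11, 86498871 to 86544805) ran from 38.3 to 44.7 CPM and from 41.6 to 44.7 CPM. Its log2 fold change was 0.063 (SE 0.0617, edgeR adjusted p = 0.588), with a ratio of 0.949 to 1.15. Of its 100-base windows 99% were unique, and the rest also occur in Rnft1. Eif4ebp1 (chromosome 8, 27260327 to 27275656) was less precisely measured, from 194 to 279 reads per library. It stood at 8.04, 8.57, 12.7 and 7.69 CPM (IGF1R_flfl) against 10.4, 10.1, 12.3 and 9.18 CPM (OMP_IGF1R). IGF1R_flfl 13 was the highest of all 8 libraries, and the other 3 of its group were the lowest. Its log2 fold change was 0.18 (SE 0.17, edgeR adjusted p = 0.57), and the interval allowed a ratio of 0.87 to 1.48, so a modest difference was not detectable in this gene. Without IGF1R_flfl 13 the log2 fold change was 0.38. The libraries highest in Eif4ebp1, IGF1R_flfl 13 and OMP_IGF1R 17, also had the highest sums of neutrophil markers (885 and 568 CPM). The part of those cells in the Eif4ebp1 values was not tested.

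**Figure D2:**
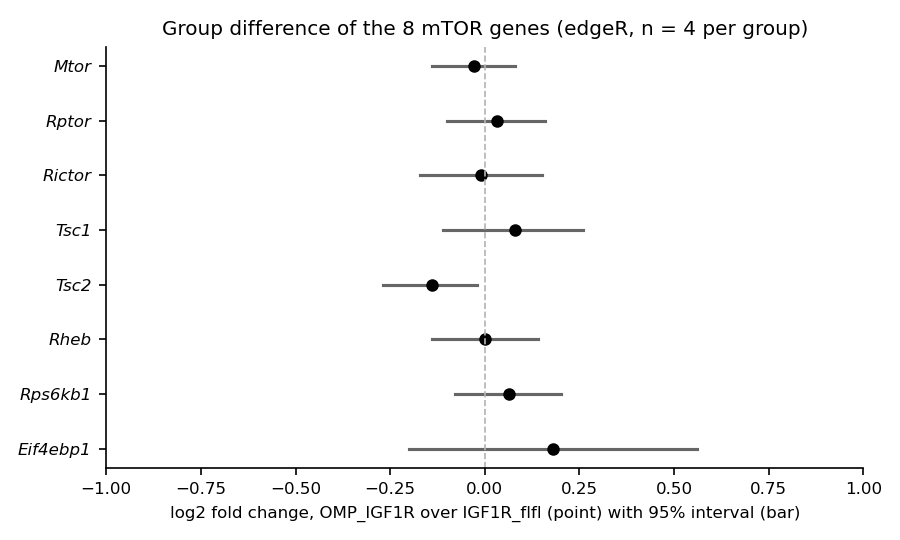
Fitted log2 fold change (points) of the 8 mTOR genes with its 95% interval (bars), which is not adjusted for the number of genes. The interval crosses 0 for 7 genes and stays below 0 for Tsc2 (-0.27 to -0.02), and it is the widest for Eif4ebp1 (-0.20 to 0.56).

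Levels of different genes were compared per length, as CPM per kilobase of the longest principal GENCODE transcript. Over the 8 libraries Rheb was the highest member at 40.7 ± 2.17 CPM per kilobase, followed by Tsc2 at 17.2 ± 1.18 (SD, n = 8). Rptor (9.58 ± 0.487) and Mtor (8.68 ± 0.346) came next, and then Rps6kb1 (7.64 ± 0.437), Rictor (6.73 ± 0.465), Tsc1 (6.26 ± 0.554) and Eif4ebp1 (4.94 ± 0.932), in the same unit. AF529169 was the lowest member in both groups, at 0.308 ± 0.0487 CPM per kilobase in IGF1R_flfl and 1.21 ± 0.231 in OMP_IGF1R (SD, n = 4 each). Neighbours from Rptor down to Eif4ebp1 overlapped over the libraries, Mtor and Rps6kb1 by no more than a shared 8.08, while Rheb and Tsc2 lay apart from those below them and AF529169 from those above it. With all annotated exons as the length, the order became Tsc2 (10.8 CPM per kilobase), Rheb (9.41), Mtor (7.35), Rps6kb1 (4.88), Rptor (4.69), Eif4ebp1 (4.49), Tsc1 (4.06) and Rictor (3.7), with AF529169 again the lowest, so the ranks between depend on the transcript taken as the length.

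Other members of the complexes and of the pathway were read from 9 lists. Over all tested genes, edgeR called 8.20%, and 23.5% had an edgeR p under 0.05 before adjustment. At the first share, lists this short would hold few called genes. In the list of mTOR complex subunits and their assembly factors, 0 of 12 were called with edgeR, voom or DESeq2, and 1 had a p under 0.05 before adjustment. The list's median log2 fold change was -0.019 and its summed expression was 529 ± 13.9 and 529 ± 17.7 CPM (SD, n = 4 each). That 1 gene was Prr5l, which binds mTORC2, at 0.22 on the log2 scale (SE 0.0912, edgeR adjusted p = 0.176). The next by p, Tti2 and Tti1, which help to fold mTOR, stood at -0.064 and -0.057. Deptor, the mTOR inhibitor reported to bind the AF529169 product, ran from 9.6 to 17.6 CPM in IGF1R_flfl and from 11.6 to 16.9 CPM in OMP_IGF1R (log2 0.078, SE 0.186, edgeR adjusted p = 0.843). Notch2, the other reported partner, stood at -0.066 on the log2 scale (SE 0.0836, edgeR adjusted p = 0.688).

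The paralog A730017C20Rik was at 5.91 CPM in IGF1R_flfl 2, the library with bulb and oligodendrocyte RNA, and at 1.27 to 2.5 CPM in the other 7. Its difference of -0.36 on the log2 scale (SE 0.443, edgeR adjusted p = 0.676) became 0.36 without that library. AF529169 itself, at 2.51 CPM there, was close to the 2.45 CPM of IGF1R_flfl 13.

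Rhebl1 (chromosome 15, 98877778 to 98881404, minus strand), a paralog of Rheb that can also activate mTORC1, was the called gene of the list of TSC and Rheb genes, in which 1 of 5 rose and 0 fell. It stood at 3.95, 4.27, 4 and 4.16 CPM (IGF1R_flfl) against 6.33, 6.86, 5.84 and 6.18 CPM (OMP_IGF1R). The groups lay well apart, with little spread inside either. The log2 fold change was 0.62 (SE 0.106, edgeR adjusted p = 0.0104), and 2.83% of all tested genes were called higher. Because Rheb itself was not called, the coding windows in which both genes are most alike are shown, to let a reader see whether reads could pass from one to the other. They begin at coding base 20 of each gene, 66 of 90 bases are identical, and capitals mark the bases that differ.
Rheb: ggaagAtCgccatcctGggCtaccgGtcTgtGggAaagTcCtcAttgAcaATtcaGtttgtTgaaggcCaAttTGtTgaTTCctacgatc
Rhebl1: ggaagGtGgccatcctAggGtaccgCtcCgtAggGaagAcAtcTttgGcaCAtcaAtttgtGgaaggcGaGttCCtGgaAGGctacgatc
The longest identical run of the 2 transcripts was 11 bases, and each of their 100-base windows was unique to its gene.

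Among the 22 substrates and effectors, 0 were called by edgeR, 3 had an unadjusted p under 0.05 and the median log2 fold change was 0.034. DESeq2 called 1, Eif4b, a translation initiation factor (edgeR log2 0.11, SE 0.0483, adjusted p = 0.198), and voom 0. The other pair by p was Larp1 (-0.18), which controls mRNAs of the translation machinery, and the kinase Akt2 (-0.21). Of the 13 Rag and Ragulator genes, which hold mTORC1 at the lysosome, edgeR, DESeq2 and voom called 0 and 1 had an edgeR p under 0.05 before adjustment, the GTPase Rragc. It ran from 85.3 to 97.3 CPM in IGF1R_flfl and from 75.8 to 82.5 CPM in OMP_IGF1R (log2 -0.18, SE 0.055, edgeR adjusted p = 0.0832), so the groups did not overlap but the gene missed the threshold. The same held in edgeR for Larp1, Eif4b, Sesn1, Prkag2 and Ddit4l, named in this paragraph. Over the 9 lists 10.4% of genes did not overlap between the groups, against 16.9% of all tested genes. Of the 15 GATOR and amino acid sensor genes, the 3 tools edgeR, DESeq2 and voom called 0, and 1 had an edgeR p under 0.05 before adjustment, Sesn1, a sestrin (log2 0.18). Of the 14 AMPK and stress genes, 0 were called by the same tools and 2 had an edgeR p under 0.05 before adjustment, the AMPK subunit Prkag2 (0.18) and Ddit4l, a stress-induced mTORC1 inhibitor (0.43, SE 0.174, edgeR adjusted p = 0.171). The medians of these last 3 lists were -0.048, 0.0082 and 0.052.

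Gene groups whose transcription is known to follow mTORC1 activity were also read. Of 17 Atf4-linked genes of amino acid supply, 0 were called by edgeR and 3 had an unadjusted p under 0.05 (median log2 0.037). Slc7a11, the cystine transporter, had the smallest p (0.46, SE 0.165, edgeR adjusted p = 0.132). It was called by voom, while DESeq2 called 0 of the list. Of 20 Srebf-linked genes of sterol and fatty acid synthesis, 0 were called by edgeR, DESeq2 or voom and 3 had an unadjusted edgeR p under 0.05 (median 0.062). Fdft1, a squalene synthase, had the smallest p (-0.18, SE 0.0655, edgeR adjusted p = 0.126), followed by Fasn, the fatty acid synthase (0.18, SE 0.0773, edgeR adjusted p = 0.194).

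Of 26 Tfeb-linked genes, listed under autophagy and lysosome though Ppargc1a is not specific to either, 3 fell and 0 rose (median log2 -0.048). Of all tested genes, 5.37% were called lower. DESeq2 and voom each called 4, the same 3 and Uvrag, an autophagy regulator named after its values were seen (-0.19, SE 0.0571, edgeR adjusted p = 0.0814). Ppargc1a (chromosome 5, 51454249 to 51567725), a coactivator of mitochondrial genes, stood at 55.6, 59.6, 53.1 and 58.3 CPM (IGF1R_flfl) against 45.6, 44.2, 45.3 and 44.7 CPM (OMP_IGF1R). The OMP_IGF1R libraries were tightly grouped below all of IGF1R_flfl (log2 -0.33, SE 0.0481, edgeR adjusted p = 0.006). The others that fell were Gabarapl1, an autophagosome protein (411 ± 37.6 and 333 ± 13 CPM), and Ctsb, a lysosomal protease (807 ± 8.55 and 695 ± 29.9 CPM; SD, n = 4 each). Their edgeR adjusted p-values were 0.0397 and 0.0498. The call of Gabarapl1 was lost under 9 of the 16 alternative settings and that of Ctsb under 13, with adjusted p-values of up to 0.131 and 0.167. The bounds of Ctsb (chromosome 14, 63122462 to 63145919) overlap those of Fdft1, which start at 63145153, so reads may be shared there. Mature neuron markers fell in the same libraries, and their part in these differences was not tested.

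Over the 9 lists together, 144 genes were tested, of which 1 rose and 3 fell (2.78%, against 8.20% of all tested genes). DESeq2 called 6 and voom 6. The absolute log2 fold change was under 0.2 for 87.5% of them and for 64.6% of all tested genes. These shares were not matched for expression level, on which the precision of a fold change depends. Without IGF1R_flfl 1 or 3, or OMP_IGF1R 11, 12 or 18, the number called was 2.

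**Figure D3:**
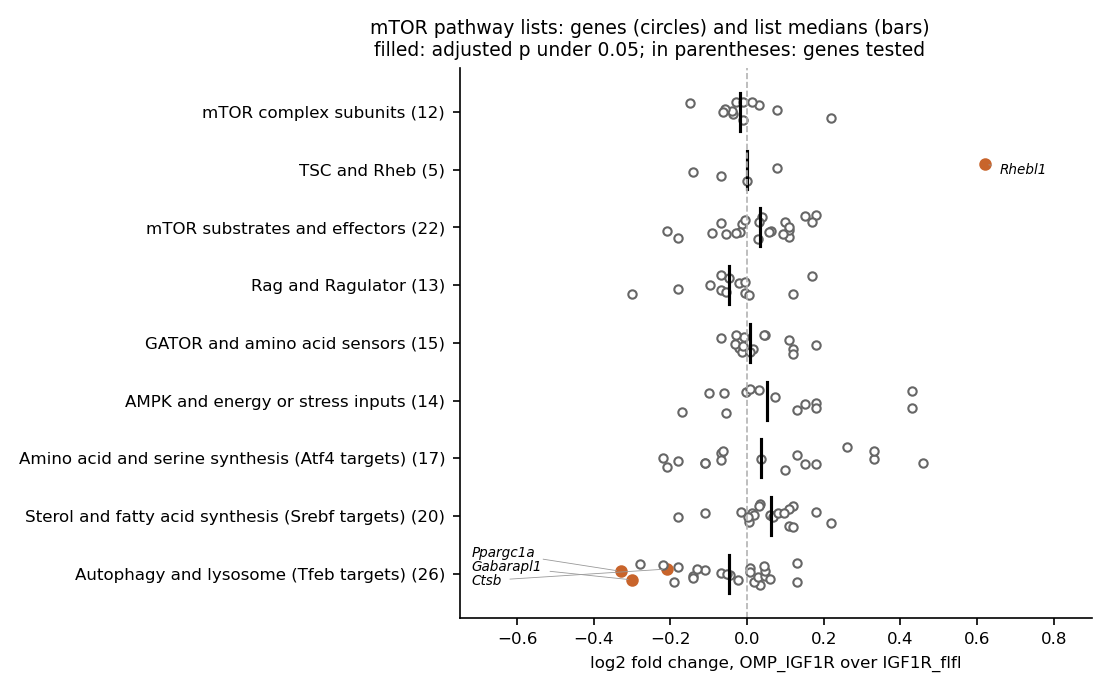
Log2 fold change of each tested gene (circles) in the 9 pathway lists, with list medians (bars) and called genes filled and named. The medians lie between -0.048 and 0.062, Rhebl1 stands at 0.62, and the 3 called genes of the autophagy and lysosome list, Ppargc1a among them, lie between -0.33 and -0.21.

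Of 17 marker lists for the cell types of the tissue, 4 had sums that lay apart between the groups and 13 had sums that overlapped. Of the 4, 3 were higher in OMP_IGF1R and 1, the mature neuron list, was lower. Among single tested genes, 16.9% did not overlap between the groups, and edgeR called 2.83% higher at an adjusted p under 0.05. The 12 immature neuron markers, of which 10 rose, summed to 1072 to 1201 CPM in the first group and to 1601 to 1820 CPM in the second, a ratio of means of 1.53. The 10 basal progenitor markers, of which 9 rose, summed to 142 to 167 CPM and to 239 to 301 CPM, a ratio of 1.77. The 7 horizontal basal cell markers, of which 3 rose and 4 were not called, summed to 287 to 336 CPM and to 378 to 565 CPM, a ratio of 1.45. None of the markers in these 3 lists was at 0 in all libraries.

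Per 1000 CPM of immature neuron markers, AF529169 was at 2 ± 0.365 CPM in IGF1R_flfl and 5.09 ± 0.852 CPM in OMP_IGF1R (SD, n = 4 each), a ratio of 2.55 with no overlap. Per 1000 CPM of basal progenitor markers the values were 14.1 ± 3.08 and 30.8 ± 5.13, a ratio of 2.19, again with no overlap. For horizontal basal cell markers they were 7.21 ± 1.26 and 19.8 ± 5.01, a ratio of 2.75 with no overlap. Scaled by neutrophil or by skeletal muscle markers, the groups overlapped. Against the mature neuron markers, which fell, the ratio was 6.96. These ratios reuse the values that AF529169 was selected on and are a description. Which cells carry its RNA is not measured in dissected tissue, and the part of a changed cell make-up in its rise was not tested.

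**Figure D4:**
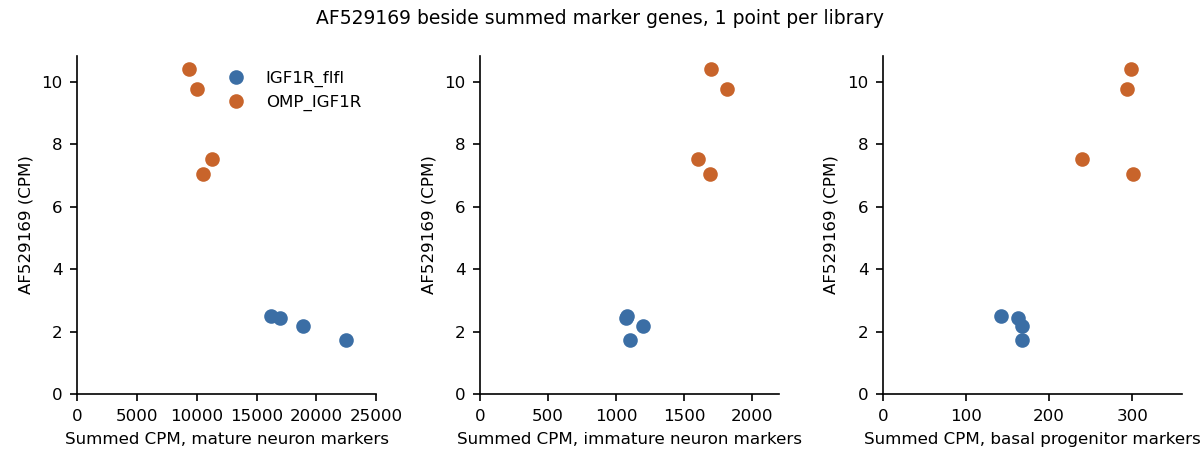
AF529169 (CPM, vertical axes) against the summed CPM of mature neuron, immature neuron and basal progenitor markers, with 1 point per library, blue for IGF1R_flfl and orange for OMP_IGF1R. The groups form separate clusters in each panel, at higher sums in OMP_IGF1R for immature neuron and progenitor markers and at lower sums for mature neuron markers.

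Of the 4 tested genes nearest to AF529169 on chromosome 9, 0 were called by edgeR, which for so few genes is near the 8.20% of all tested genes. The nearest tested genes were Tmed3, a protein of the secretory pathway 76217 bases away, and Rasgrf1, an exchange factor for Ras, 286789 bases away, on the higher side. On the lower side they were Mthfs, a folate enzyme 349812 bases away, and Bcl2a1b, a member of the Bcl2 family 382211 bases away. Tmed3 ran from 56.5 to 67.9 CPM in IGF1R_flfl and from 62.6 to 76.4 CPM in OMP_IGF1R (log2 0.13, SE 0.0774, edgeR adjusted p = 0.359), and Mthfs stood at 0.16 (SE 0.108, edgeR adjusted p = 0.398). Bcl2a1b stood at 0.34 (SE 0.227, edgeR adjusted p = 0.409). Rasgrf1 was at 32.5 CPM in IGF1R_flfl 2 and at 0.664 to 1.53 CPM elsewhere, so its log2 fold change of -2.95 (edgeR adjusted p = 0.2) became 0.59 without that library.

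Promoters were searched for a pair of motifs on both strands. RefSeq promoters of GRCm38.p6 matched 8 of the 9 members by symbol, and Eif4ebp1 was not matched. In the 250 bases upstream, the FOXO core motif TGTTTAC was in 0 of 8 members and in 3.17% of 32851 promoters. The E-box CACGTG was in 1 of 8 members, Rheb, and in 6.02% of promoters. GC content there was 65.6% for AF529169 and ran from 37.6% for Rptor to 81.2% for Rictor, with a median of 52.4% over all promoters.

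The expression profile of AF529169 was compared with those of 14869 other tested genes as the root mean square difference between standardized log2 CPM over the 8 libraries, in SD units. The nearest 6 genes were 2810417H13Rik (now Pclaf, 0.125), a partner of the replication clamp, Hdac2 (0.139), a histone deacetylase, and Cdk1 (0.163), the mitotic kinase. They were followed by the predicted gene Gm8113 (0.174), 2610039C10Rik (now Mis18a, 0.187), a centromere protein, and Ezh2 (0.199), a histone methyltransferase. All 6 were higher in OMP_IGF1R with no overlap, which this measure favours since AF529169 itself was picked for that pattern. Hdac2 is also in the immature neuron list and Ezh2 in the basal progenitor list. With group means subtracted, the nearest were Dcbld1 (0.159), 2810417H13Rik (0.222), B230219D22Rik (0.223), Reep3 (0.223), Mysm1 (0.242) and Rdx (0.273), of which 2810417H13Rik was near on both measures. Of the 8 mTOR genes Rps6kb1 came nearest, at 0.967 and position 2838, and Tsc2 was the farthest, at 1.928 and position 13855.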

How the data were processed

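RNA of dissected olfactory epithelium was sequenced in 8 libraries, 4 per title group. The submitters' processing notes name Trim Galore 0.3.7, TopHat2 2.0.14, SAMtools 1.2, DESeq2 and the builds GRCm38 and mm10. How reads were counted, and with which strand setting, is not given in the sources used here, so overlapping genes may share reads. The authors deposited raw read counts, whole numbers by their values. Beside the counts of each library stands a column headed as a standard deviation, which is 0 throughout. A further table from the authors gives, per the file headers, a mean signal, log2 fold changes, a test score and p-values, and was used for description.

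The count test was the quasi-likelihood F-test of edgeR 4.0.16 in R 4.3.3, with TMM scaling, filterByExpr, Benjamini-Hochberg adjusted p-values over 17381 genes and a threshold of 0.05. SE is the absolute log2 fold change over the square root of F, and 95% intervals use the degrees of freedom of the fit. Profiles used a pseudocount of 0.5 CPM. Alternatives were other scaling factors and filters, DESeq2 1.42.0, limma voom 3.58.1 and leaving out libraries, and the fits were tested on simulated data. The members and lists were chosen with earlier results of these data known, and list members withheld for evaluation were left out of the lists and are not reported here. Named genes were the members, Igf1r, Omp, the called genes of each pathway list or, with none called, up to 3 with the smallest p, and partners, neighbours and nearest profiles. Transcripts are those of GENCODE M21.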

Additional observations from a re-analysis of the deposited data

Results flagged for a closer look

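In 7 of the 108 groups of 4 libraries looked at, over 54 named genes, 1 library stood apart from the other 3 by more than Dixon's 95% critical value for the gap over the range. Chance alone flags about 1 group in 20. Of the members, Mtor was at 79.5 CPM in IGF1R_flfl 1 (72.9 to 74 CPM in the other 3), Tsc2 at 104 CPM in OMP_IGF1R 11 (96.1 to 97.3 CPM) and Rheb at 65.4 CPM in OMP_IGF1R 11 (74.3 to 75.7 CPM). In the pathway lists, OMP_IGF1R 11 also stood apart in Slc7a11 (10.8 CPM, against 12.1 to 12.2 CPM) and in Fasn, the fatty acid synthase (137 CPM, against 118 to 121 CPM). IGF1R_flfl 3 stood apart in Fdft1, a squalene synthase (119 CPM, against 106 to 108 CPM). Rasgrf1, which lies beyond Tmed3 on the higher side of AF529169, was at 32.5 CPM in IGF1R_flfl 2 and at 0.674 to 0.818 CPM in the other 3.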

How the results depend on the processing

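The log2 fold change of AF529169 was 1.87 to 2.11 over the 16 alternative settings, and 0 of the 8 mTOR genes were called under any of them. The 4 called pathway list genes became 2 with upper-quartile factors and 2 to 4 over the libraries left out in turn. They became 2 without IGF1R_flfl 2 and OMP_IGF1R 17 together, a setting chosen after seeing the data. With total counts the number stayed 4, with Gabarapl1 and Ctsb lost (adjusted p = 0.114 and 0.136) and Sesn1 and Prkag2 gained (0.0474 and 0.0354). Without IGF1R_flfl 2 it also stayed 4, with Ctsb lost (0.0843) and Slc7a11 gained (0.0354, log2 0.61). Rhebl1 and Ppargc1a were called under all 16. The 1425 called genes became 569 to 1477 over the libraries left out in turn. The causes were not tested.

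Signs turned in some genes that were not called. Mtor became 0.003 with upper-quartile factors, 0.042 with total counts, 0.0091 without OMP_IGF1R 17 and 0.0043 without both libraries, and Rptor -0.006 without OMP_IGF1R 11. Rictor became 0.023, 0.062 and 0.0079 with upper-quartile factors, total counts and voom, 0.016, 0.0053 and 0.063 without IGF1R_flfl 1, IGF1R_flfl 2 and OMP_IGF1R 17, and 0.07 without both. Rheb became 0.009, 0.031, 0.07, 0.0058, 0.0026, 0.0081 and 0.017 under the 7 settings with all libraries, 0.038, 0.016 and 0.046 without IGF1R_flfl 2, IGF1R_flfl 13 and OMP_IGF1R 11, and 0.019 without both. With total counts Tti2, Tti1 and Notch2 became 0.0058, 0.014 and 0.0041. Deptor became -0.017 with voom and -0.051 and -0.0013 without IGF1R_flfl 3 and OMP_IGF1R 17. Mysm1 became -0.022, -0.04 and -0.017 without IGF1R_flfl 3, OMP_IGF1R 12 and OMP_IGF1R 18. A730017C20Rik and Rasgrf1 became 0.36 and 0.59 without IGF1R_flfl 2 and 0.28 and 0.77 without both libraries. Over the libraries left out in turn, the log2 fold changes ran from -0.049 to 0.0091 for Mtor, -0.006 to 0.069 for Rptor, -0.057 to 0.063 for Rictor, -0.024 to 0.046 for Rheb, -0.59 to 0.36 for A730017C20Rik, -0.051 to 0.23 for Deptor, -3.33 to 0.59 for Rasgrf1 and -0.04 to 0.039 for Mysm1. No paired analysis was possible because the groups share no replicate number. The 44 reads of AF529169 in its lowest library limit the precision of its level.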
